A study of Mus musculus with 2 samples.

Results

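The translation initiation and elongation factors are the proteins that place a ribosome on the start codon of an mRNA and then move it along. The genes described here are all gene symbols of the deposited tables that begin with Eif1 to Eif6 or with Eef1 or Eef2, apart from the eIF2 kinases (Eif2ak) and pseudogenes, which gave 68 of 31253 genes. Of these, 67 are annotated as protein-coding. They were counted in 2 libraries of single cells sorted as CD4+FoxP3+ regulatory T (Treg) cells from mouse spleen, with the 10x Genomics 3' kit, which counts 1 unique molecular identifier (UMI) per captured mRNA 3' end. One library came from Foxp3YFP-Cre Kmt2d fl/fl mice (here fl/fl) and the other from Foxp3YFP-Cre Kmt2d+/+ mice (here +/+). Both genotypes carry the Cre with its yellow fluorescent protein, which is driven from Foxp3 and therefore acts in Foxp3-expressing cells. Kmt2d encodes a histone H3 lysine 4 methyltransferase. Each library is a pool of 3 mice, and the age and sex of the animals are not given in the sources used here. With 1 library per genotype there is no replicate, so no test could be made, and library and genotype cannot be told apart. All intervals are at 95% and cover counting error only.

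Initiation begins when eIF2 with GTP brings the initiator tRNA to the small ribosomal subunit, which eIF1, eIF1A, eIF3 and eIF5 prepare for scanning. The eIF4F complex (the cap-binding eIF4E, the scaffold eIF4G and the helicase eIF4A) recruits the mRNA, eIF2B recharges eIF2 with GTP, and eIF5B joins the large subunit. In elongation, eEF1A delivers aminoacyl-tRNA, the eEF1B subunits recharge eEF1A, and eEF2 translocates the ribosome. T cells are known to raise protein synthesis when they leave rest. Many elongation factor mRNAs and a few eIF3 subunit mRNAs share a 5' terminal oligopyrimidine (TOP) tract with the ribosomal protein mRNAs, through which mTOR controls their translation.

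Promoter sequences are shown for the 3 elongation factors that were higher in the fl/fl Treg cells and for the helicase paralogs Eif4a1 and Eif4a2, which differed in opposite directions in cycling Treg cells. They come from RefSeq (GRCm38.p6), which had entries for 51 of the 68 genes. Each runs from 100 bases before to 20 bases past the annotated start, 5′ to 3′ on the gene's strand, and capitals mark matches on either strand to the E-box letters CACGTG, the ETS-type letters CCGGAAG, the TATA box letters TATAAA or the GC box letters GGGCGG.
Eef1a1: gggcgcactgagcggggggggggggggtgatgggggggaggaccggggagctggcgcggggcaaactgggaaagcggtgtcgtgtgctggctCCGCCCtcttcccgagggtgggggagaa
Eef1b2: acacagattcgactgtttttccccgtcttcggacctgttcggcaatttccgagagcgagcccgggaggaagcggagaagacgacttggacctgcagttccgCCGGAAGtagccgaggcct
Eef2: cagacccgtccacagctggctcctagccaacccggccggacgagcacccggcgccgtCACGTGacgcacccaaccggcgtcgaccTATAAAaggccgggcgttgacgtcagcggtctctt
Eif4a1: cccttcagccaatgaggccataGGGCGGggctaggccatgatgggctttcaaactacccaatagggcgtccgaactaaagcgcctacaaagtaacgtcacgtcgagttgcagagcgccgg
Eif4a2: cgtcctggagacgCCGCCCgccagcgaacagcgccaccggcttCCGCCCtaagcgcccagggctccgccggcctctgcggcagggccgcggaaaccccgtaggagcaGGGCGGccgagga

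The Eef1a1 window is chr9:78481705-78481824 on the minus strand, Eef1b2 is chr1:63176731-63176850 on the plus strand, and Eef2 is chr10:81176531-81176650 on the plus strand. Eif4a1 is chr11:69672404-69672523 on the minus strand and Eif4a2 is chr16:23107368-23107487 on the plus strand. Eef2 was the only one of these 5 windows with TATAAA in the shown part, and Eif4a2 had GGGCGG at 3 places. In the full windows of 300 bases, CACGTG occurred in 24.6% of the 65 start windows of these genes and in 7.15% of all 32851 start windows in the table. CCGGAAG occurred in 29.2% of them and in 8.86% of all, GGGCGG in 70.8% and 35.7%, and TATAAA in 7.69% and 13.6%. Matches describe letters only and are not shown to be binding sites. The longest run of pyrimidines in the first 50 bases from the annotated start was 8 in Eef2, a length reached in 17.4% of all windows, and 5 in both Eef1a1 and Eef1b2, reached in 63.2%. Annotated starts can lie some bases or more from the true cap. The Eef1a1 window lies inside the span of the gene in the GENCODE annotation, which on this strand begins at 78489151. These runs therefore do not show whether a TOP tract is present or absent.

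The deposited fl/fl table held 8784 barcodes with 63989234 UMIs and that of +/+ held 7947 barcodes with 53680614 UMIs. After filters and removal of doublets, 8370 fl/fl and 7560 +/+ single cells remained, and 15 barcodes occurred in both libraries. Cells were sorted into marker-based gates, and 3473 fl/fl and 3584 +/+ cells fell in the Treg gate (a Foxp3 UMI, or at least 4 UMIs of the Treg transcription factor Ikzf2, in a CD3-positive cell). Among them 19.2% of fl/fl and 23.1% of +/+ cells had a Foxp3 UMI, so most were gated by Ikzf2. B cells, neutrophils and other cells were present in both libraries despite the sort. The libraries stood apart in ways that touch every level below. Cytosolic ribosomal protein genes took 30.04% of the UMIs of fl/fl and 24.6% of those of +/+ Treg cells, and mitochondrial genes took 2.59% and 3.09%. The Treg marker Nrp1 was at 69.8 CPM (UMIs of a gene per 1000000 UMIs of the same cells) in fl/fl and 266 CPM in +/+ Treg cells, while Ctla4 was at 872 and 907 CPM. Kmt2d itself was at 66.8 CPM in fl/fl and 69.6 CPM in +/+ Treg cells, and since a 3' count need not see the deleted exons, it does not check the label. B cell RNA (8 genes) summed to 386 and 483 CPM and neutrophil RNA (5 genes) to 3.31 and 8.75 CPM in these gated Treg cells. Their part in the results was not tested.

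Together the 68 genes made up 1.83% of all UMIs of the fl/fl single cells and 1.55% of those of the +/+ single cells. In all, 64 had at least 1 UMI. The cap-binding paralog Eif4e1b, Eif4a3l2, Eif2c5 (annotated as a long noncoding RNA) and the Y-linked eIF2 subunit Eif2s3y had 0 UMIs in both libraries, which allows up to 0.0498 CPM in fl/fl and 0.0592 CPM in +/+ cells. Eef1a2, the eEF1A form of muscle and neurons, had 2 UMIs and the 4E-binding protein Eif4ebp3 had 1, all in the +/+ library. In the Treg cells 56 of the 68 reached 10 CPM in either library and are called measured here. Of these, 3 were at 1000 CPM or more, 24 between 100 and 1000 CPM, and 29 between 10 and 100 CPM. The remaining 12 were under 10 CPM. Levels of different genes are shares of captured 3' ends and were not divided by transcript length, which 3' counting does not need.

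Eef1a1 (ENSMUSG00000037742, GRCm38 chromosome 9, 78478449 to 78489151, minus strand), which encodes the main eEF1A, was the most abundant member in both libraries. It stood at 8045 CPM in fl/fl and 5094 CPM in +/+ Treg cells and alone gave 40.2% of the fl/fl and 32.3% of the +/+ UMIs of these genes. Next came Eef1b2, which encodes an exchange factor of eEF1A, at 2101 and 1514 CPM, and Eif1, the start codon selection factor, at 1719 and 1672 CPM. Eef1a1 has near-identical processed pseudogene copies, so its count depends on how the authors' counting assigned such reads.

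**Figure D1:**
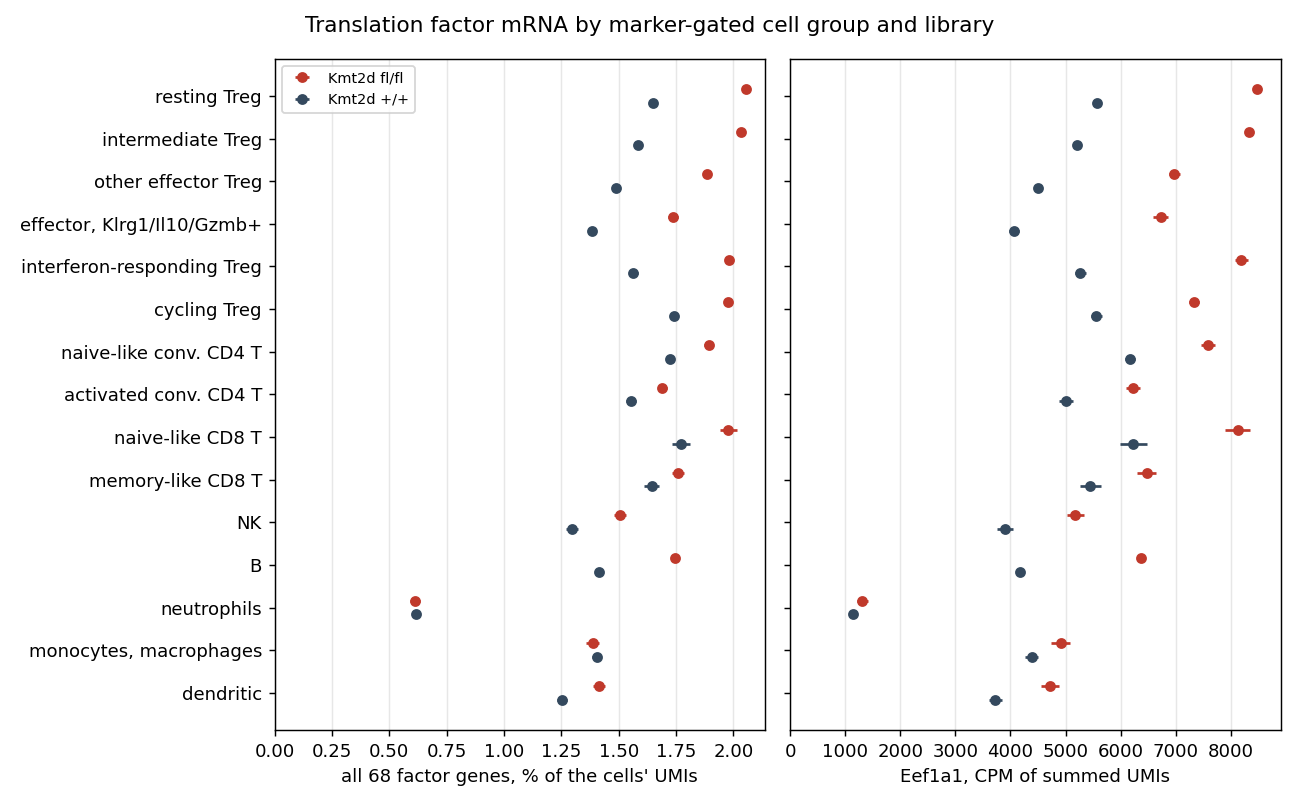
Left, the share of UMIs from all 68 factor genes in each of 15 exclusive cell groups, and right, the level of Eef1a1 in CPM, with fl/fl in red and +/+ in dark blue. Points are sums over the cells of 1 library with 95% counting intervals. Neutrophils lie lowest at 0.612% in fl/fl and 0.618% in +/+, and Eef1a1 is higher in fl/fl in each group drawn.

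Neutrophils stood far below all other cells in factor mRNA. The summed share of the 68 genes was 2.05% of UMIs in fl/fl and 1.65% in +/+ resting Treg cells (resting genes such as Ccr7, Lef1 and Tcf7 above the effector genes). It was 1.84% in fl/fl and 1.46% in +/+ effector Treg cells (Icos, Maf, Prdm1, Tnfrsf9 and other effector genes), and 1.98% and 1.74% in cycling Treg cells. B cells had 1.75% and 1.41%, natural killer (NK) cells 1.51% and 1.30%, and neutrophils 0.612% and 0.618%. Neutrophils were the lowest of the 15 groups in both libraries, with a median of 7853 UMIs per cell in fl/fl and 8842 in +/+, above the 6519 and 5740.5 of resting Treg cells.

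Of the members at 20 CPM or more in any of these groups, 20 of 53 in fl/fl and 23 of 55 in +/+ had their highest level in cycling Treg cells, where 12.3% of 8954 such genes of any kind in fl/fl and 13.1% of 9136 in +/+ had theirs. The lowest level was in neutrophils for 42 of 53 and 42 of 55 members, and for 40.7% and 39.9% of those genes. Eif4g2, an eIF4G relative that lacks the eIF4E-binding site, went the other way. It was highest in neutrophils, at 325 CPM in fl/fl and 306 CPM in +/+. Eif1 was nearer its usual level in neutrophils than Eef1a1 was, with 1148 CPM in fl/fl and 1077 CPM in +/+ neutrophils against medians of 1712 and 1690 CPM over the 15 groups. Eef1a1 was at 1307 CPM in fl/fl and 1141 CPM in +/+ neutrophils against medians of 6729 and 5007 CPM.

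Monocytes and macrophages had the highest level of Eif4ebp1, the mTOR-controlled inhibitor of eIF4E, at 85.7 CPM in fl/fl and 63.4 CPM in +/+. The same cells had the highest Eif4e3, a divergent cap-binding paralog, at 35.8 CPM in fl/fl and 48.5 CPM in +/+. Eef2k, the kinase that inhibits eEF2, was highest in NK cells, at 53.8 CPM in fl/fl and 48.7 CPM in +/+, against medians of 5.81 and 7.56 CPM over the groups. Each of these 3 regulators thus had its highest level in the same cell type in both libraries. Eif5a2, the rare paralog of the elongation factor Eif5a, had 147 UMIs in all fl/fl and 142 UMIs in all +/+ single cells, and Eif3j2 had 91 and 61.

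Between the libraries, the question the study's design puts is whether Treg cells differ with Kmt2d. In all Treg cells the elongation factors summed to 12158 CPM in fl/fl and 8395 CPM in +/+, a log2 ratio of 0.53. The sum had 0.49 in resting and 0.53 in effector Treg cells taken alone. In all Treg cells 3 of the 7 measured elongation factors (Eef1a1, Eef1b2 and Eef2) were higher and 0 lower by the rule of size that follows. The eIF3 complex summed to 2961 and 2600 CPM (0.19), the eIF4 cap-binding and helicase group to 1702 and 1662 CPM (0.03), and the eIF2B exchange factor to 87.9 and 99.9 CPM (-0.18). A gene was counted as higher or lower when its log2 ratio was 0.32 or more in size and its counting interval left out 0. By that rule of size 6 of the 56 measured members were higher and 3 were lower in fl/fl. Among all 8056 measured genes 6.24% were higher and 23.8% lower. The median log2 ratio was 0.02 over the members, -0.14 over all genes and 0.28 over the 81 measured ribosomal protein genes. Scaling to the median ratio over genes moves every log2 ratio in Treg cells up by that 0.14 and gives 13 members higher and 1 lower, with 940 of all genes higher and 1194 lower in place of 503 and 1915.

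**Figure D2:**
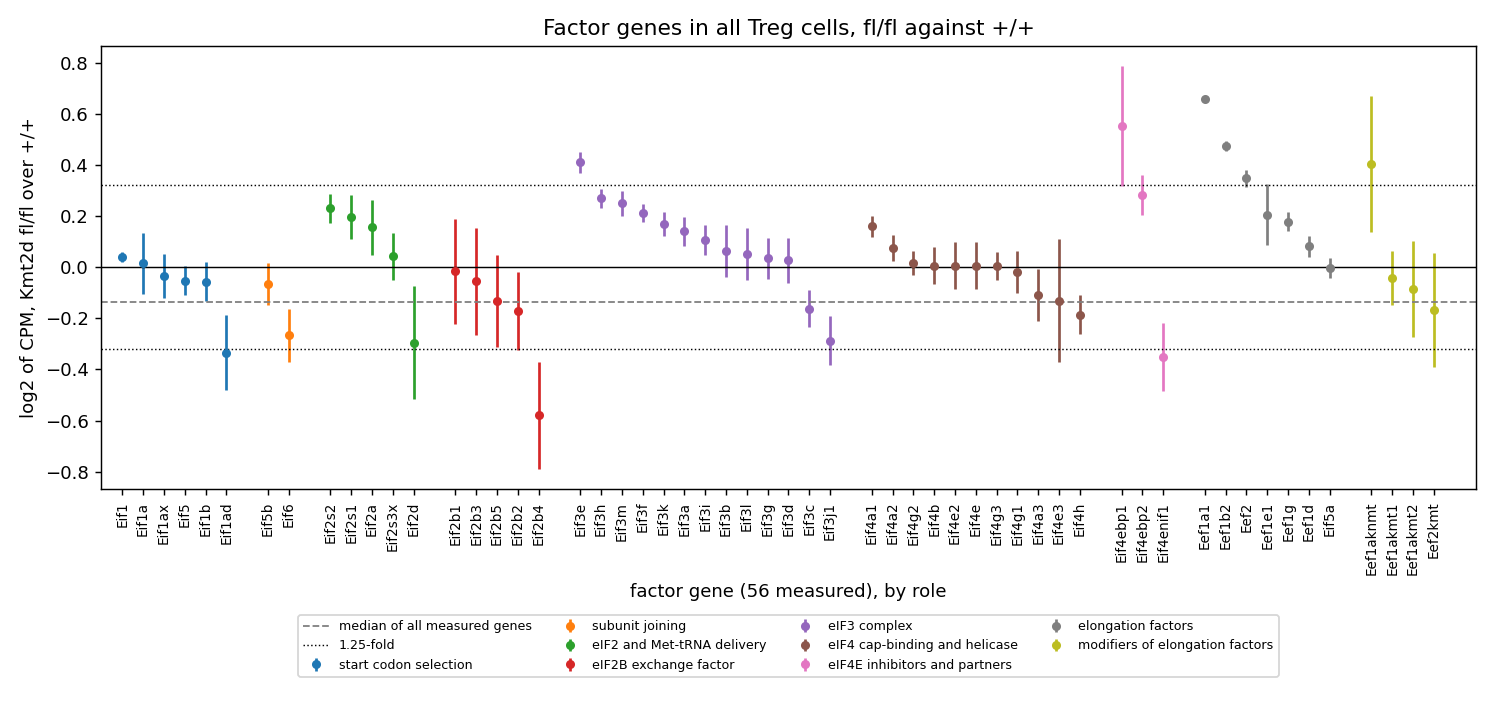
Log2 ratio of CPM, fl/fl over +/+, in all Treg cells for the 56 measured factor genes grouped by role, with 95% counting intervals. Eef1a1 stands highest at 0.66 and Eif2b4 lowest at -0.58, and the dashed line is the median of all measured genes at -0.14.

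Among the elongation factors, Eef1a1 had a log2 ratio of 0.66 (0.65 to 0.67) and stayed between 0.63 and 0.80 over 8 other ways of processing. Those of the 8 that change only the CPM floor leave a log2 ratio as it is. Eef1b2 (chromosome 1, 63176825 to 63180486, plus strand) had 0.47 (0.45 to 0.49) in all Treg cells, whose states are mixed. It had 0.43 in resting and 0.37 in effector Treg cells, both below the value of the mix. Eef2 (chromosome 10, 81176631 to 81182498, plus strand), the translocase, was at 659 CPM in fl/fl and 518 CPM in +/+, a log2 ratio of 0.35 (0.31 to 0.38). The other eEF1B subunits moved less and did not pass the rule, with Eef1g at 505 and 446 CPM (0.18, 0.14 to 0.22) and Eef1d at 376 and 355 CPM (0.08, 0.04 to 0.12). Eif5a, which helps ribosomes past proline runs, was at 420 CPM in fl/fl and 421 CPM in +/+, a log2 ratio of -0.0046 (-0.04 to 0.03). Within this group the log2 ratios thus ran from that of Eif5a to that of Eef1a1.

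Of the 13 measured eIF3 subunits only Eif3e (chromosome 15, 43250058 to 43282719, minus strand) passed the rule, at 458 CPM in fl/fl and 345 CPM in +/+ (0.41, 0.37 to 0.45). Its neighbours in rank were Eif3h at 468 and 389 CPM (0.27, 0.23 to 0.31), Eif3m at 303 and 255 CPM (0.25, 0.20 to 0.30) and Eif3f at 524 and 453 CPM (0.21, 0.18 to 0.25). Subunits of the same complex did not move alike: the core subunit Eif3c was at 118 CPM in fl/fl and 132 CPM in +/+ (-0.16, -0.23 to -0.09) and the loosely bound Eif3j1 at 64.1 and 78.3 CPM (-0.29, -0.38 to -0.19). Both fell short of the rule of size.

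The 8 members best known as TOP mRNAs (Eef1a1, Eef1b2, Eef1d, Eef1g, Eef2, Eif3e, Eif3f and Eif3h) summed to 13136 CPM in fl/fl and 9113 CPM in +/+ Treg cells, a log2 ratio of 0.53. Of that sum Eef1a1 alone gave 8045 CPM in fl/fl and 5094 CPM in +/+. All 60 other members together summed to 6863 and 6659 CPM, a log2 ratio of 0.04. The median log2 ratio was 0.31 over the 8, of which 4 passed the rule. It was 0.0051 over the 48 measured among the others. The ribosomal protein genes, the largest class of TOP mRNAs, summed to 300446 and 245907 CPM, a log2 ratio of 0.29. This grouping was made after the values were seen and is a description only. In a sum over cells, more cells with a high level and a higher level in each cell cannot be told apart. Over single cells, Eef1a1 took a median of 0.797% of a cell's UMIs in fl/fl and 0.478% in +/+ Treg cells. Its quartiles were 0.640% and 0.939% in fl/fl and 0.354% and 0.609% in +/+. The lower quartile of fl/fl thus lay above the upper quartile of +/+.

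None of the 11 measured members of the eIF4 cap-binding and helicase group passed the rule between the libraries. Eif4e, the cap-binding protein, was at 77.4 CPM in fl/fl and 77.1 CPM in +/+ (0.01, -0.09 to 0.10), and the scaffolds Eif4g1, Eif4g2 and Eif4g3 had log2 ratios of -0.02, 0.02 and 0.0048. The helicase Eif4a1 was at 415 and 371 CPM (0.16, 0.12 to 0.20) and its paralog Eif4a2 at 259 and 246 CPM (0.07, 0.02 to 0.12). Among the inhibitors, Eif4ebp1 was higher, at 15.03 CPM in fl/fl and 10.3 CPM in +/+ (0.55, 0.32 to 0.79). Its log2 ratio was 1.01 in resting cells, where +/+ was at 6.11 CPM, under the floor, and 0.65 in effector cells. The more abundant Eif4ebp2 at 123 and 101 CPM did not pass the rule (0.28, 0.21 to 0.36). Eif4enif1, an eIF4E-binding shuttling protein, was lower, at 32.5 CPM in fl/fl and 41.5 CPM in +/+ (-0.35, -0.48 to -0.22). Eif1ad, an eIF1A-like protein, was lower too, at 27.2 and 34.3 CPM (-0.33, -0.48 to -0.19). With median scaling Eif4enif1 had -0.22 and Eif1ad -0.20, which no longer passed. The eIF2B subunit Eif2b4, at 12.3 CPM in fl/fl and 18.3 CPM in +/+ (-0.58, -0.79 to -0.37), was the remaining lower member. Eef1aknmt, an eEF1A methyltransferase, was at 11.1 and 8.36 CPM (0.40, 0.14 to 0.67) and was the last of the 6 higher. In all Treg cells Eif4ebp1 and Eif2b4 lie just above the 10 CPM floor. Eef1aknmt is under the floor in +/+ and counts as measured through its fl/fl level alone.

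**Figure D3:**
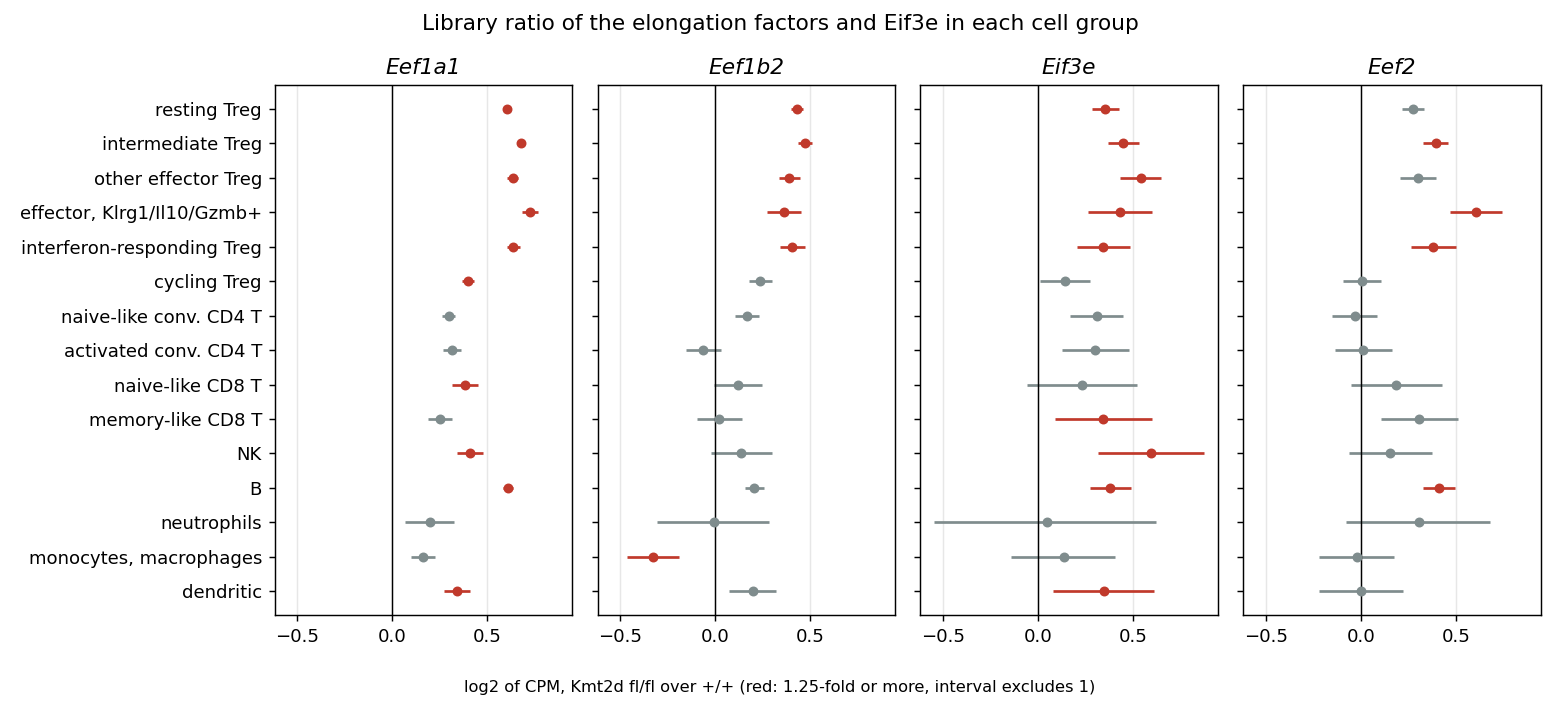
Log2 ratio of CPM, fl/fl over +/+, of Eef1a1, Eef1b2, Eif3e and Eef2 in each of 15 cell groups, with 95% counting intervals; red marks a log2 ratio of 0.32 or more in size whose interval leaves out 0. Eef1a1 and Eif3e are above 0 in all 15 groups, while Eef1b2 is below 0 in 3 of them and Eef2 in 2.

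The higher Eef1a1 of the fl/fl library was not limited to Treg cells. Its log2 ratio was above 0 in all 15 exclusive groups, from 0.16 in monocytes and macrophages to 0.73 in effector Treg cells with Klrg1, Il10 or Gzmb, and it passed the rule in 10 of the 15, among them all 6 Treg groups. In B cells Eef1a1 was at 6364 CPM in fl/fl and 4174 CPM in +/+ (0.61, 0.58 to 0.64), close to the ratio of resting Treg cells, with 8479 and 5579 CPM (0.60, 0.59 to 0.62). In naive-like conventional CD4 T cells it had 0.30 (0.26 to 0.33) and did not pass the rule. Foxp3 was at 0.131 CPM in fl/fl and 0.299 CPM in +/+ B cells.

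Eif3e was likewise above 0 in all 15 groups and passed in 9, with 0.38 (0.27 to 0.49) in B cells. Eef1b2 passed in 5 of the 6 Treg groups, with log2 ratios from 0.24 to 0.47 over the 6, and in no other group as higher. In the 9 other groups Eef1b2 ranged from -0.33 in monocytes and macrophages, where it passed as lower, to 0.21 in B cells. In each Treg group its interval lay above 0.2 apart from cycling cells (0.24, 0.18 to 0.30), but the difference between Treg and other groups was not tested, as there is no replicate. Eef2 was above 0 in all 6 Treg groups, from 0.0039 in cycling to 0.60 in Klrg1, Il10 or Gzmb positive effector cells, and passed in 3. In B cells Eef2 was at 618 CPM in fl/fl and 466 CPM in +/+ (0.41, 0.33 to 0.49).

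Within the gates compared as wholes, 5 members were higher and 4 lower in fl/fl resting Treg cells, where 6.35% and 24.8% of all measured genes were. In effector Treg cells 8 were higher and 3 lower, beside 8.47% and 20.8% of all genes. Median scaling gives 11 members higher and 0 lower in resting cells, with 968 of all genes higher and 1095 lower, and 13 and 2 members in effector cells, with 1046 and 1275 of all genes. With gates set on thinned cells (each cell cut to 2500 UMIs) Eef1b2 had 0.25 in effector cells, and with a Foxp3 UMI required Eef2 had 0.23 there, both short of the rule. Besides the genes named above, Eif2s1, the eIF2 alpha subunit whose phosphorylation slows initiation, was higher in effector cells, at 111 CPM in fl/fl and 86.6 CPM in +/+ (0.36, 0.18 to 0.54; 0.24 with gates on thinned cells), and Eef1e1, a component of the aminoacyl-tRNA synthetase complex, in resting cells, at 52.4 and 41.6 CPM (0.33, 0.12 to 0.54; 0.31 with doublets kept). Eif3j1 was lower in resting cells, at 60.6 and 79.2 CPM (-0.38, -0.55 to -0.22; -0.25 with median scaling). Eif4enif1 was lower in both states, with 29.0 CPM in fl/fl and 36.4 CPM in +/+ resting cells and 33.3 and 51.0 CPM in effector cells, though with median scaling it had -0.19 in resting cells.

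In naive-like conventional CD4 T cells, gated as free of Foxp3 UMIs, 1 member (Eif2b5) was higher and 5 (Eef1akmt1, Eif4g3, Eif3c, Eif3d and Eif4b) were lower in fl/fl, beside 2.68% and 7.95% of 7715 genes. Among these, Eif4g3 was at 148 CPM in fl/fl and 205 CPM in +/+ (-0.46, -0.69 to -0.24) and Eif3c at 91.4 and 120 CPM (-0.40, -0.68 to -0.11). With median scaling the split turns to 5 members higher and 1 lower, and that of all genes to 361 and 372. With gates on thinned cells Eif2b5 turned to -0.21, and Eif4g3 had -0.04, Eef1akmt1 -0.22 and Eif3d -0.20, so none of these calls held. Eif4b had -0.24 and Eif3c -0.32, just short of the rule, with median scaling. In CD8 T cells 2 were higher and 0 lower, beside 2.86% and 5.53% of genes: Eif4ebp2 at 112 CPM in fl/fl and 83.7 CPM in +/+ and Eif3m at 316 and 238 CPM. In B cells 6 were higher and 0 lower, beside 5.47% and 11.4%, and Eif1ax, an eIF1A form, was the second largest there, at 97.6 CPM in fl/fl and 68.4 CPM in +/+ (0.51, 0.30 to 0.73; 0.29 with gates on thinned cells). The sums of the ribosomal protein genes had log2 ratios of 0.12, 0.02 and 0.14 in these 3 cell types. They had 0.29 in all Treg cells, whose states are mixed, 0.23 in resting and 0.25 in effector Treg cells.

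Cycling Treg cells were set against resting Treg cells within each library, with 191 and 1531 cells in fl/fl and 110 and 1156 cells in +/+. Many initiation factors were higher in cycling cells, Eif4a2 was lower, and of the elongation factors Eif5a alone passed the rule. By that rule 23 of 56 members were higher and 3 lower in fl/fl, and 22 of 55 were higher and 4 lower in +/+. Among all measured genes 34.0% were higher and 19.5% lower in fl/fl, and 30.4% and 26.1% in +/+. The members' share called higher was not far above that of all genes, and fewer of them were called lower. Their median log2 ratio was 0.21 in fl/fl and 0.19 in +/+, and that of all genes 0.11 and 0.02. In all 20 members were higher in both libraries, 87.0% of the fl/fl and 90.9% of the +/+ list, and 2 were lower in both. Median scaling gives 19 members higher and 6 lower in fl/fl and 20 and 4 in +/+, with 2303 and 2075 of all genes in fl/fl and 2495 and 2282 in +/+. B cell RNA summed to 388 CPM in cycling and 332 CPM in resting fl/fl cells, and to 999.8 and 235 CPM in +/+, where its gene Cd74 was at 312 and 22.1 CPM, and its part in the results was not tested. Cycling cells were deeper, with medians of 15688 UMIs in fl/fl and 17817.5 in +/+, and the part of depth in the ratios was not tested.

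**Figure D4:**
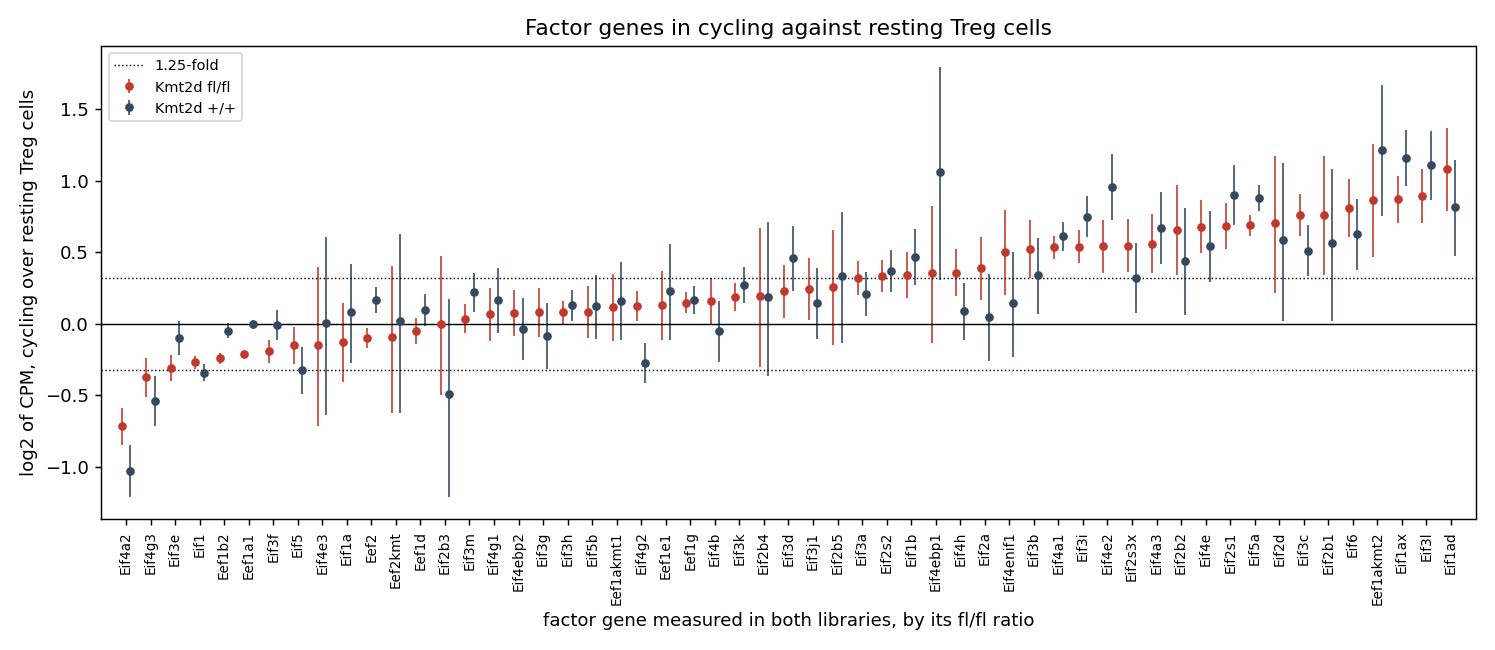
Log2 ratio of CPM in cycling over resting Treg cells for the 55 factor genes measured in both libraries, with fl/fl in red and +/+ in dark blue and 95% counting intervals, ordered by the fl/fl ratio. Eif4a2 lies lowest in both libraries, at -0.72 in fl/fl and -1.03 in +/+, and Eif1ad, Eif3l and Eif1ax are among the highest.

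Among the eIF1 and eIF1A genes and their relatives, Eif1ax was at 143 CPM in cycling and 78.0 CPM in resting fl/fl cells. Its log2 ratio there was 0.87 (0.71 to 1.04), and in +/+ cells it was at 172 and 76.7 CPM (1.16, 0.97 to 1.36). Its paralog Eif1a did not follow, with -0.13 (-0.41 to 0.14) in fl/fl and 0.08 (-0.27 to 0.42) in +/+. Eif1ad was at 49.2 and 23.3 CPM in fl/fl (1.08, 0.79 to 1.37) and at 54.8 and 31.1 CPM in +/+ (0.82, 0.48 to 1.15). The abundant Eif1 was lower, at 1482 and 1785 CPM in fl/fl (-0.27, -0.31 to -0.22) and at 1342 and 1703 CPM in +/+ (-0.34, -0.40 to -0.28), which passed the rule in +/+ alone and there not with gates on thinned cells (-0.28), while its paralog Eif1b was higher, at 132 and 104 CPM in fl/fl (0.34, 0.18 to 0.50) and 144 and 104 CPM in +/+ (0.47, 0.27 to 0.66).

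The group of eIF2 and initiator tRNA delivery, which holds Eif2a and Eif2d beside the eIF2 subunits, was higher in cycling cells. Of its 5 measured members 5 passed in fl/fl and 4 in +/+. Eif2s1 was at 142 CPM in cycling and 88.4 CPM in resting fl/fl cells (0.69, 0.52 to 0.85) and at 141 and 75.5 CPM in +/+ (0.90, 0.69 to 1.11). The group's sum was 598 and 433 CPM in fl/fl and 553 and 405 CPM in +/+. Of the eIF2B subunits Eif2b1 and Eif2b2 were higher in both libraries. Eif6, which keeps the large subunit from joining too early, was at 91.6 and 52.3 CPM in fl/fl (0.81, 0.60 to 1.01) and at 95.02 and 61.6 CPM in +/+ (0.63, 0.38 to 0.87).

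Within eIF3, 4 of 13 subunits were higher in fl/fl and 5 of 13 in +/+. Eif3l, a peripheral subunit, was at 109 CPM in cycling and 58.5 CPM in resting fl/fl cells (0.89, 0.71 to 1.08) and at 113 and 52.4 CPM in +/+ (1.11, 0.87 to 1.35). Eif3b, Eif3c and Eif3i were higher in both as well. Eif3e, the subunit with the largest library ratio, was not: it had -0.31 (-0.40 to -0.22) in fl/fl and -0.10 (-0.22 to 0.02) in +/+, both short of the rule.

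The helicase paralogs parted. Eif4a1 was at 581 CPM in cycling and 401 CPM in resting fl/fl cells (0.53, 0.46 to 0.61) and at 544 and 356 CPM in +/+ (0.61, 0.51 to 0.71). Eif4a2 was at 171 and 281 CPM in fl/fl (-0.72, -0.85 to -0.59) and at 133 and 271 CPM in +/+ (-1.03, -1.21 to -0.85). Of the UMIs of the 2 genes, Eif4a1 gave 77.3% (75.6% to 78.9%) in cycling fl/fl cells and 58.8% (57.7% to 60.0%) in resting fl/fl cells. In +/+ it gave 80.4% (78.2% to 82.4%) in cycling and 56.8% (55.3% to 58.3%) in resting cells. Over the 15 groups this share was highest in cycling Treg cells in both libraries, followed by monocytes and macrophages at 67.8% in fl/fl and 74.0% in +/+. In cells thinned to 2500 UMIs, Eif4a2 was seen in 36.6% of cycling and 48.1% of resting fl/fl cells (89.5% and 81.1% before thinning), and in 29.1% and 50.04% of +/+ cells (84.5% and 76.0%). Eif4a3, the exon junction helicase, was higher with Eif4a1, with 0.56 (0.35 to 0.77) in fl/fl and 0.67 (0.42 to 0.92) in +/+.

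The cap-binding Eif4e was higher in cycling cells, at 107 and 66.8 CPM in fl/fl (0.68, 0.49 to 0.86) and at 94.5 and 64.9 CPM in +/+ (0.54, 0.29 to 0.79), as was its paralog Eif4e2. The scaffold Eif4g3 was lower, at 163 and 211 CPM in fl/fl (-0.37, -0.51 to -0.24; -0.29 with gates on thinned cells) and at 150 and 218 CPM in +/+ (-0.54, -0.72 to -0.36). Eif4g1 differed by 0.07 (-0.12 to 0.25) and 0.16 (-0.06 to 0.39). Of the elongation factors Eif5a alone passed, at 633 CPM in cycling and 393 CPM in resting fl/fl cells (0.69, 0.61 to 0.76) and at 713 and 388 CPM in +/+ (0.88, 0.79 to 0.97). Eef1a1 was at 7339 and 8479 CPM in fl/fl (-0.21, -0.23 to -0.19) and at 5563 and 5579 CPM in +/+ (-0.0043, -0.03 to 0.03). The ribosomal protein genes summed lower in cycling cells, with log2 ratios of -0.40 in fl/fl and -0.28 in +/+. Eif5a thus went the opposite way from the ribosomal protein sum.

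Effector Treg cells were set against resting Treg cells with 573 and 1531 cells in fl/fl and 1244 and 1156 cells in +/+. At the cut between states lay 430 resting and 55 effector cells of fl/fl and 339 and 137 of +/+. The elongation factors summed to 10342 CPM in effector and 12794 CPM in resting fl/fl cells, a log2 ratio of -0.31, and to 7180 and 9125 CPM in +/+, -0.35. Of their 7 measured members, 0 were higher and 1 lower in fl/fl, and 0 and 3 in +/+. The ribosomal protein sum had log2 ratios of -0.44 in fl/fl and -0.46 in +/+. By the rule 6 members were higher and 1 lower in fl/fl, and 5 and 5 in +/+, beside 32.6% and 7.51% of all genes in fl/fl and 30.5% and 9.41% in +/+. The median log2 ratio of all genes was 0.20 in fl/fl and 0.16 in +/+. Relative to that median, 2 members were higher and 7 lower in fl/fl and 5 and 10 in +/+, with 1366 and 1260 of all genes in fl/fl and 1544 and 1340 in +/+, so the split depends on the scaling.

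The members higher in both libraries were Eif4e, Eef1akmt2 and Eif4ebp1, and Eef1b2 was lower in both. Eif4e was at 92.8 CPM in effector and 66.8 CPM in resting fl/fl cells (0.47, 0.29 to 0.66) and at 91.3 and 64.9 CPM in +/+ (0.49, 0.32 to 0.67). Its inhibitor Eif4ebp1 was at 24.1 and 12.3 CPM in fl/fl (0.97, 0.58 to 1.36) and at 15.4 and 6.11 CPM in +/+ (1.33, 0.81 to 1.88). Eif4e no longer passed in fl/fl with median scaling (0.27), nor in +/+ with a Foxp3 UMI required (0.29). In thinned cells Eif4ebp1 was seen in 7.03% of effector and 2.62% of resting fl/fl cells, and in 3.72% and 1.83% of +/+ cells, before thinning in 14.3% and 7.77% and in 8.28% and 3.55%. Eef1b2 was at 1596 and 2288 CPM in fl/fl (-0.52, -0.56 to -0.48) and at 1234 and 1698 CPM in +/+ (-0.46, -0.50 to -0.42; -0.26 with a Foxp3 UMI required). Eef1a1 was at 6895 and 8479 CPM in fl/fl (-0.30, -0.32 to -0.28) and at 4368 and 5579 CPM in +/+ (-0.35, -0.37 to -0.33; -0.25 with a Foxp3 UMI required). B cell RNA summed to 675 CPM in effector and 332 CPM in resting fl/fl cells, and to 709 and 235 CPM in +/+, and its part was not tested.

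Effector Treg cells with a UMI of Klrg1, Il10 or Gzmb were set against the other effector cells, with 191 and 382 cells in fl/fl and 377 and 867 in +/+. In fl/fl 4 members were higher and 8 lower, beside 9.40% and 8.02% of all genes, and in +/+ 0 were higher and 2 lower, beside 7.35% and 4.28%. Eif3g, a scanning subunit of eIF3, was lower in both, at 88.5 and 129 CPM in fl/fl (-0.54, -0.86 to -0.24) and at 82.3 and 109 CPM in +/+ (-0.40, -0.65 to -0.16). It no longer passed with gates on thinned cells in fl/fl (-0.25) or with a Foxp3 UMI required in +/+ (-0.21). Eif5a was lower in fl/fl, at 315 and 489 CPM (-0.63, -0.80 to -0.48), and Eif4a1 at 329 and 460 CPM (-0.48, -0.64 to -0.33). With gates on thinned cells Eif5a was at -0.32, just short of the rule. In +/+ Eif5a had -0.08 and Eif4a1 -0.26, and neither passed. The difference between the libraries was not tested. Scaling without ribosomal protein and similar genes gives 1 member higher and 14 lower in fl/fl, with 596 and 909 of all genes.

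Other genes of the pathway were taken from a list of 40 that holds the eIF2 kinases, mTOR pathway members, poly(A)-binding proteins, release factors and the enzymes that modify eIF5A and eEF2. In all Treg cells 5 of its 35 measured genes were higher and 4 lower in fl/fl, beside 6.24% and 23.8% of all measured genes. Their median log2 ratio was -0.02, and that of all genes -0.14. Dph5, an enzyme that builds the diphthamide on eEF2, was at 154 CPM in fl/fl and 50.6 CPM in +/+ (1.61, 1.51 to 1.70), a larger ratio than that of any of the 56 measured factor genes in these cells. In effector cells Dph5 was at 59.0 CPM in fl/fl and 40.4 CPM in +/+ (0.54, 0.29 to 0.80). It was lower in effector than in resting cells, with a log2 ratio of -1.78 in fl/fl and -0.77 in +/+. Myc, the transcription factor that drives ribosome production, was at 98.2 and 64.5 CPM (0.61, 0.52 to 0.70) in all Treg cells. Those cells are a mix of states. In effector cells no measured gene of the list had a log2 ratio above the 0.54 of Dph5, so Myc was below 0.61 there. In resting cells Myc was not among the genes named for the largest ratios, which went down to Rack1 at 0.44. Rack1, a protein of the small ribosomal subunit, was at 2952 and 2087 CPM (0.50, 0.48 to 0.52) in all Treg cells.

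Mknk2, a kinase of eIF4E, was lower, at 63.1 CPM in fl/fl and 103 CPM in +/+ Treg cells (-0.71, -0.80 to -0.62), and Rptor, the mTORC1 subunit that binds its substrates, at 49.4 and 79.0 CPM (-0.68, -0.78 to -0.57). Gcn1, an activator of an eIF2 kinase, was lower as well, at 29.7 and 37.2 CPM (-0.32, -0.46 to -0.18). In cycling against resting cells 5 of 35 were higher and 8 lower in fl/fl, beside 34.0% and 19.5% of all genes. In +/+ 6 were higher and 11 lower, beside 30.4% and 26.1%. Ppp1r15a, which recruits the phosphatase of eIF2 alpha, was at 89.6 CPM in cycling and 248 CPM in resting fl/fl cells (-1.47, -1.64 to -1.30) and at 95.5 and 321 CPM in +/+ (-1.75, -1.96 to -1.54). Pdcd4, an inhibitor of eIF4A, was at 313 and 567 CPM in fl/fl (-0.86, -0.95 to -0.76). Eif2ak2, the kinase of eIF2 alpha that senses double-stranded RNA, was higher, at 44.8 and 27.7 CPM in fl/fl (0.69, 0.40 to 0.98) and at 34.5 and 23.0 CPM in +/+ (0.59, 0.17 to 0.99).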

How the data were processed

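The deposited matrices hold raw UMI counts per gene and barcode that the authors made; Cell Ranger 7.1.0, fastp and Seurat 4.1.1 and the builds mm10 and GRCm38 are named in the submitters' processing notes, and how the authors filtered those barcodes is not given in the sources used here. Barcodes with at least 500 genes and at most 10% mitochondrial counts were kept. Doublets were scored with Scrublet's method, written anew in Python 3.11.15 (numpy 2.4.6, scipy 1.17.1, scikit-learn 1.9.0), at an expected rate of 6% and with Otsu's threshold, and 264 fl/fl and 230 +/+ barcodes were left out. Cells were assigned to exclusive gates by raw UMI counts of markers, so gates are not independent of depth, and groups under 50 cells in either library (plasma cells) were not compared. UMIs were added up over the cells of a gate in each library and expressed as CPM. Ratios have exact conditional binomial intervals, levels exact Poisson intervals and shares Clopper-Pearson intervals, at 95%. Genes at 10 CPM or more in either sum were measured, and a log2 ratio of 0.32 or more in size with an interval that leaves out 0 counts as higher or lower. The calculation was tested on simulated counts. The members, the lists, the gates and the alternatives were chosen with earlier results of these data known. Named members are the 10 of highest CPM in Treg cells, up to 6 of the largest ratios each way per comparison at 20 CPM or more, listed paralogs, and members at 0; of the other translation genes, up to 3 each way. Eef1aknmt, Eef1d, Eef2k, Eif2b2, Eif2b4, Eif3b, Eif3i and the TOP grouping were chosen after their values were seen, as were some comparisons in which other members are named. Gene positions are from the GENCODE annotation of GRCm38. Detection per cell was compared in cells thinned to 2500 UMIs, which left out 13 fl/fl and 29 +/+ Treg cells that were shallower. There were 12 comparisons, each made again under 8 alternatives, or under 7 where requiring a Foxp3 UMI left too few cells or did not bear on the gate.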

Additional observations from a re-analysis of the deposited data

Results flagged for a closer look

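Eif4enif1 differed in opposite directions in the 2 libraries between effector Treg cells with Klrg1, Il10 or Gzmb and the other effector cells. In fl/fl it was at 41.7 CPM in the positive and 29.0 CPM in the other cells, a log2 ratio of 0.52 (0.000477 to 1.03) from 57 and 77 UMIs, and in +/+ at 42.8 and 54.5 CPM, -0.35 (-0.70 to -0.0054) from 93 and 275 UMIs. The difference was not tested. Each interval comes close to 0, and the direction turned in fl/fl with gates set on thinned cells (-0.13) and in +/+ with Treg cells gated by Foxp3 alone (0.22).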

How the results depend on the processing

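No paired analysis was possible because each genotype has 1 library. Of 270 summary values recomputed, 53 moved beyond their bounds. Of 766 values of single members, 660 stayed within their interval, 103 left it and 3 changed sign. Leaving out the CPM floor or raising it to 50 CPM does not alter a log2 ratio, so values under those settings could not move and count among the 660. A change of sign was counted only for values that had passed the rule of size. Scaling to the median ratio over genes changed the members higher and lower in fl/fl to 13 and 1 in all Treg cells (median 0.15), 11 and 0 in resting and 13 higher in effector Treg cells, 5 and 1 in naive-like CD4 T cells, 5 higher in CD8 T cells and 10 in B cells. It gave 2 higher and 7 lower (median -0.10) for effector against resting fl/fl cells, 10 lower (median -0.13) in +/+, and 6 lower for cycling against resting fl/fl cells. Among all genes median scaling gave 332 higher and 329 lower in CD8 T cells and 733 and 542 in B cells. Scaling without ribosomal protein, mitochondrial and receptor genes gave 10 and 1 members in all Treg cells (median 0.12) and 11 and 0 in resting Treg cells. It gave 5 and 2 in naive-like CD4 T cells. For effector against resting cells it gave 2 and 6 in fl/fl (median -0.080) and 10 lower in +/+. For cycling fl/fl cells 8 were lower. Klrg1, Il10 or Gzmb positive cells had 1 and 14 in fl/fl and 4 lower in +/+. Among all genes it gave 875 higher and 1558 lower in all Treg cells and 866 and 1370 in resting Treg cells. Naive-like CD4 T cells had 323 and 466. For effector against resting cells all genes had 1591 and 1190 in fl/fl and 1748 and 1245 in +/+. Cycling fl/fl cells had 2248 and 2479, and positive cells 596 and 909 in fl/fl and 540 and 509 in +/+. A floor of 50 CPM left 0 members lower in all Treg cells and 1 lower in each of resting and effector Treg cells. It left 0 higher in naive-like CD4 T cells, 2 higher for the positive fl/fl cells and 3 higher for effector against resting +/+ cells. Among all genes this floor gave 201 higher and 731 lower in all Treg cells and 176 and 758 in resting Treg cells. Effector Treg cells had 333 and 769, and naive-like CD4 T cells 85 and 324. Positive fl/fl cells had 449 and 360, and effector against resting +/+ cells 1050 and 386. With a Foxp3 UMI required, 6 members were lower in all Treg cells and 2 for effector against resting cells in each library. For the positive +/+ cells 1 was higher and 4 lower, with Eif4enif1 at 0.22. All genes had 652 higher and 1836 lower in all Treg cells and 510 and 295 for the positive +/+ cells. For effector against resting cells all genes had 1642 and 437 in fl/fl and 1763 and 709 in +/+. Cycling cells (43 in fl/fl, 27 in +/+) and positive fl/fl cells (33) were too few for a value. Gates on thinned cells gave 2 members higher and 3 lower in naive-like CD4 T cells, with Eif2b5 at -0.21. They gave 4 higher in CD8 T cells and 1 lower in B cells. For effector against resting fl/fl cells 4 were lower, and for cycling +/+ cells 2 were lower. Positive cells had 1 and 4 in fl/fl, with Eif4enif1 at -0.13, and 5 lower in +/+. All genes had 213 higher and 633 lower in naive-like CD4 T cells and 262 and 437 in CD8 T cells. They had 333 and 795 in B cells, and 2511 and 677 for effector against resting fl/fl cells. Cycling +/+ cells had 2301 and 2079, and positive cells 445 and 540 in fl/fl and 638 and 387 in +/+. With doublets or with all barcodes kept, 2 members were higher for the positive fl/fl cells. All genes there had 794 higher and 627 lower with doublets kept, and 791 and 629 with all barcodes kept. Why these values moved was not tested beyond the scaling itself. Members under 50 CPM rest on few UMIs, and 1 library per genotype limits every comparison.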
